A study of Mus musculus with 12 samples.

Results

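The genes of insulin signalling were followed through the left ventricle (LV) of adult offspring of diabetic and non-diabetic mothers. They are 10 named genes: the insulin receptor Insr, its adaptors Irs1 and Irs2, the PI3-kinase subunit Pik3r1, the kinases Akt1 and Akt2, the glucose transporter Slc2a4 with its traffic regulator Tbc1d4, and the transcription factors Foxo1 and Foxo3. They were found by matching Ensembl identifiers to mouse symbols. All 10 of 10 were among the 46983 genes counted, and all 10 were among the 14706 genes that passed the filter on low counts. They were picked by their place in the pathway, with earlier results of these data known.

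RNA was taken at 12 weeks of age from the cardiac LV of 12 mice, 3 in each of 4 groups. The groups were wild type (Wt) offspring of non-diabetic pregnancy, Wt offspring of diabetic pregnancy, Hif1a+/- offspring of non-diabetic pregnancy and Hif1a+/- offspring of diabetic pregnancy. Diabetes was induced with streptozotocin, a toxin of the pancreatic beta cell, in FVB females, which were mated with non-diabetic males that carried a global heterozygous deletion of Hif1a. The offspring themselves were given no toxin, so diabetic and non-diabetic below refer to the pregnancy. Hif1a encodes the oxygen-regulated subunit of hypoxia-inducible factor 1, and the deletion was present in every cell of the Hif1a+/- mice, not in the heart alone. The mice of a group came from different litters, and p values measure the spread between these mice. Mice are named here by the animal number in their labels.

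The libraries held reads from the 3′ ends of transcripts, with 16132442 to 39812939 reads counted on genes per sample. Levels are given as CPM, the count of a gene for each 1000000 counts of a library size corrected with the TMM method. The 7 cardiomyocyte markers summed to between 76450 and 86420 CPM, and the 6 adipocyte markers to at most 8.19 CPM in any sample. The adipocyte sums were 3.29 to 8.19 CPM in Hif1a+/- diabetic and 3.02 to 4.13 CPM in Hif1a+/- non-diabetic mice. In Wt mice they were 3.23 to 5.94 CPM in diabetic and 2.18 to 6.09 CPM in non-diabetic samples. Hif1a itself had 47.9 to 71.8 CPM in the Wt samples and 64.8 to 89.4 CPM in the Hif1a+/- samples. Reads counted over the whole gene do not tell the deleted allele from the intact one, so these values do not check the genotype. Sex is female in the labels but male in the design text. In Hif1a+/- diabetic mouse 72, Xist had 158 CPM and the Y-linked gene Ddx3y had 0.352 CPM, whereas Xist was at most 5.99 CPM and Ddx3y was at least 76.1 CPM in the other 11 samples. By these genes mouse 72 read as female and the other 11 as male. The Hif1a+/- diabetic group thus held both sexes, and neither the labels nor the design text matched all mice. Wt non-diabetic mouse 25 had 4369 CPM of the globin gene Hbb-bs, against 114 to 1099 CPM elsewhere. Results were also computed without these 2 libraries. In bulk LV samples, fewer cells of a type and less RNA per cell cannot be told apart.

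Insulin binds its receptor on the cell surface, and the receptor phosphorylates the adaptors Irs1 and Irs2. These recruit PI3-kinase, whose lipid product activates the AKT kinases. AKT then releases the transporter GLUT4, the product of Slc2a4, to the surface of muscle cells by inactivating Tbc1d4, and keeps FOXO factors out of the nucleus. The heart is one of the main organs in which insulin drives glucose uptake through GLUT4, and reduced signalling through this route is a known feature of the diabetic heart.

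No member of the pathway passed the test in any comparison. The question asked of each gene was whether its level differed between offspring of diabetic and non-diabetic pregnancy, in each genotype, and between genotypes. In 8 comparisons, 0 of the 10 genes had an adjusted p under 0.1 by edgeR's quasi-likelihood test, and the same count of 0 was given by DESeq2 and by limma-voom. The background was as low with edgeR, which called 0.0% of all tested genes in each of the 8 comparisons. In the comparison of diabetic with non-diabetic Hif1a+/- mice, DESeq2 called 1.44% and limma-voom 6.37% of the genes they tested, and none of these was a member. In the other comparisons DESeq2 called 0.0148% in diabetic against non-diabetic Wt mice, 0.453% in Hif1a+/- diabetic against Wt non-diabetic mice, 1.46% in the effect of diabetes averaged over both genotypes, 0.155% and 0.00369% between genotypes in diabetic and non-diabetic pregnancy, 0.0259% between genotypes averaged over both, and 0.0% in the interaction. For limma-voom the shares were 0.0136% in Hif1a+/- diabetic against Wt non-diabetic mice, 0.265% in the averaged effect of diabetes, 0.0068% between genotypes in diabetic pregnancy and 0.0% in the others. By unadjusted p under 0.05, 1 of 10 members (Tbc1d4) stood out in the comparison of diabetic with non-diabetic Wt, where the background was 2.78%, and 1 of 10 (Akt1) in that of Hif1a+/- mice, where it was 12.0%. Akt1 was also the 1 of 10 in Hif1a+/- diabetic against Wt non-diabetic mice (background 8.85%) and in the effect of diabetes averaged over both genotypes (background 11.3%). No member was under 0.05 in the other 4, where the background was 0.959% between genotypes in non-diabetic pregnancy, 5.35% between genotypes in diabetic pregnancy, 2.69% between genotypes averaged over both and 2.52% in the interaction. In simulated counts for the 14706 genes, the edgeR test recovered 50% of genes changed 1.5-fold and 76% of genes changed 2-fold in the comparison of Hif1a+/- diabetic with Wt non-diabetic mice, so changes of this size could be missed. The changed genes were drawn at random, so these rates do not describe genes with a wide spread. The simulated counts were drawn separately for each gene and held no shift shared by many genes of a sample. The rates may therefore not hold for the real libraries. Irs2 and Irs1 varied more between mice of a group than 99.6% and 98.7% of tested genes.

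Group ranges were compared directly as well. Between diabetic and non-diabetic Hif1a+/- mice, Akt1 and Slc2a4 were higher and Insr was lower in all 3 diabetic samples, that is, 2 members higher and 1 lower, against 11.2% and 13.2% of all tested genes. In Wt mice 0 members were higher and 1, Tbc1d4, was lower without overlap, against 2.14% and 3.4% of tested genes. In the comparison of Hif1a+/- diabetic with Wt non-diabetic mice, 1 member, Akt1, was higher and 1, Irs2, was lower, against 7.47% and 7.11%. Between genotypes 0 members were apart in either direction, where 2.55% of tested genes were higher and 2.26% lower in non-diabetic pregnancy, and 4.32% higher and 3.62% lower in diabetic pregnancy. The median log2 fold change of the 10 genes was 0.024 in Wt and 0.028 in Hif1a+/- mice, beside 0.006 and -0.006 over all tested genes.

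**Figure D1:**
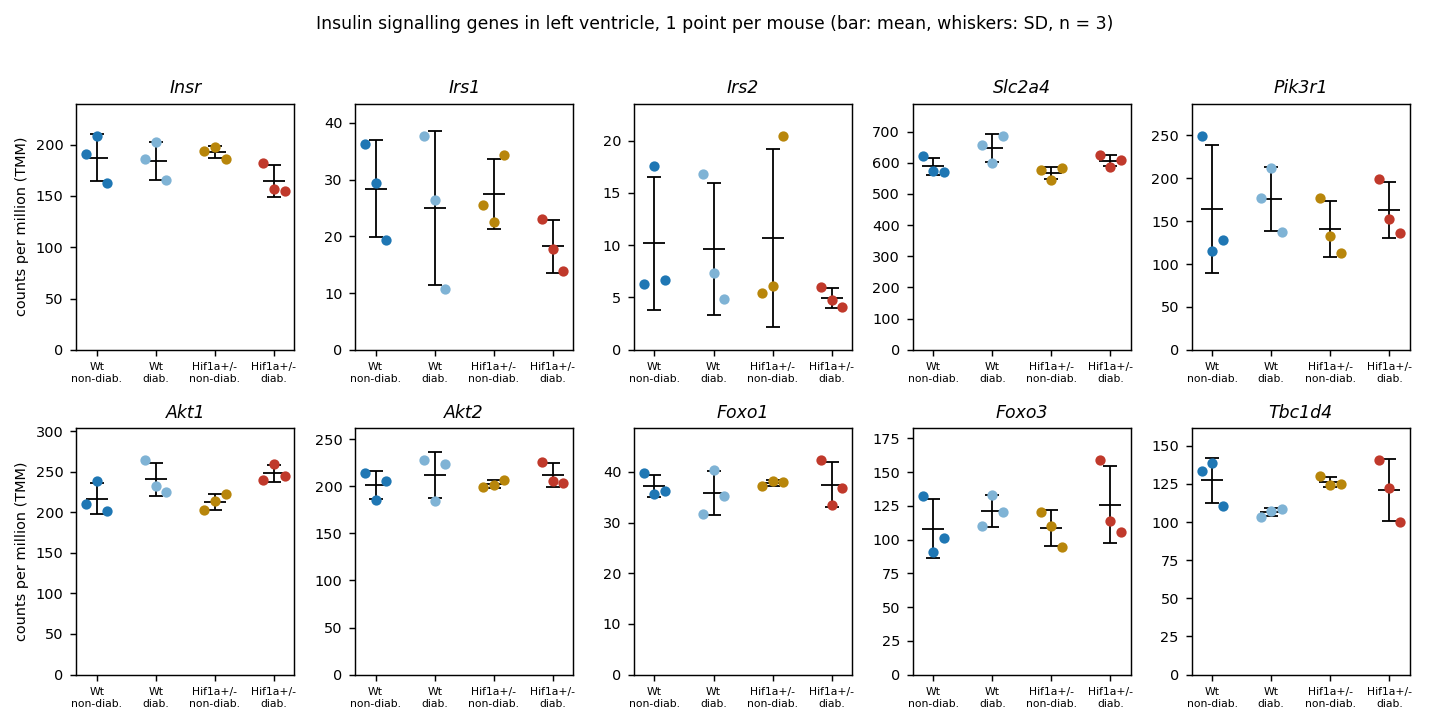
Level of each of the 10 genes in CPM (vertical axis, from 0) in the 4 groups (horizontal axis), with 1 point per mouse, the group mean as a bar and the SD as whiskers (n = 3). Irs2 shows 1 mouse at 16.8 to 20.5 CPM in each of 3 groups and none in Hif1a+/- diabetic mice, whereas Slc2a4, Akt1 and Akt2 stay within narrow ranges.

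The members differed most in how much they varied between mice of the same group. The within-group SD of log2 CPM was 0.785 for Irs2, larger than for 99.6% of tested genes, 0.56 for Irs1 (98.7%) and 0.402 for Pik3r1 (95%). At the other end it was 0.0693 for Slc2a4, which exceeded only 3.84% of tested genes, and 0.0971 for Akt1 (13.7%). For each of the 10 genes, neighbouring groups in the order of their means overlapped.

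Irs1 and Irs2 bind the activated receptor and are the docking platforms for PI3-kinase. Irs1 lies on chromosome 1 (GRCm38, 82233101 to 82291416, minus strand) and Irs2 on chromosome 8 (10984681 to 11008458, minus strand). Their promoters are shown because both genes varied strongly between mice and moved together. The 250 bases before the RefSeq start of each gene (GRCm38.p6, chr1:82291440-82291689 and chr8:11008930-11009179, both minus strand, printed 5′ to 3′) carry in capitals the letters ACGTG or GCGTG, the core to which hypoxia-inducible factors bind, on either strand:

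Irs1: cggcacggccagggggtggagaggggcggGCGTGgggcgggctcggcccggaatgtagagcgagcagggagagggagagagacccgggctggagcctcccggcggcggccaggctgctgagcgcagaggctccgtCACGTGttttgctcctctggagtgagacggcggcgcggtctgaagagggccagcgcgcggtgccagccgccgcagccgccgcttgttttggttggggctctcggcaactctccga
Irs2: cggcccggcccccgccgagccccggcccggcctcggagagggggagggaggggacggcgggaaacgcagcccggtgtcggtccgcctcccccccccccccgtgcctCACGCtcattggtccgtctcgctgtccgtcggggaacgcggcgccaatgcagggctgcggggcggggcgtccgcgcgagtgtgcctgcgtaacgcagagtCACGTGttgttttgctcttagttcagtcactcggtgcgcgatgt

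Both stretches held CACGTG, the E-box of basic helix-loop-helix factors, which contains ACGTG on both strands and so counts for both motifs. It ended 110 bases before the start in Irs1 and 39 bases before it in Irs2. The longest run of letters that the 2 stretches shared was GTCACGTGTT, of 10 bases. Promoters were found for 8 of the 10 members, all but Insr and Slc2a4. Some of these genes have several starts, so the 8 genes have 13 promoters. CACGTG was in 2 of the 13 promoters and in 6.02% of 32851 promoters of the same length, and ACGTG or GCGTG was in 9 of the 13 and in 38.6% of all promoters. A match of letters is a description and was not tied here to binding.

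Irs2 was high in 1 mouse of each of 3 groups. Wt non-diabetic mice 25, 42 and 89 had 6.29, 17.6 and 6.66 CPM. Wt diabetic mice 50, 7 and 80 had 16.8, 7.36 and 4.86 CPM. Hif1a+/- non-diabetic mice 14, 32 and 44 had 5.41, 6.08 and 20.5 CPM, and Hif1a+/- diabetic mice 66, 72 and 77 had 6.04, 4.75 and 4.11 CPM. Mice 42, 50 and 44 thus stood at 16.8 CPM or above and the other 9 mice at 7.36 CPM or below, with no mouse between. The group means were 10.2 ± 6.4 CPM (SD, n = 3) in Wt non-diabetic, 9.67 ± 6.3 in Wt diabetic, 10.7 ± 8.5 in Hif1a+/- non-diabetic and 4.97 ± 0.98 in Hif1a+/- diabetic mice. The log2 fold change between diabetic and non-diabetic mice was -1.08 (SE 0.56) in Hif1a+/- mice, with a 95% interval from -2.29 to 0.12, and -0.08 (SE 0.54) in Wt mice. Mouse 44 decided the value in Hif1a+/- mice: without it the log2 fold change was -0.19 (edgeR adjusted p = 0.928). Neither effect passed the edgeR test (adjusted p = 0.451 and 1.0), and the difference between these effects did not pass either (interaction -1.01, SE 0.78, adjusted p = 0.998). Hif1a+/- diabetic mice also lay below Wt diabetic mice by -0.95 on the log2 scale (SE 0.56, edgeR adjusted p = 0.862) and below Wt non-diabetic mice by -1.03 (SE 0.56, edgeR adjusted p = 0.595), the latter without overlap.

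Irs1 showed a wide spread of the same kind, without a gap. It had 36.4, 29.5 and 19.4 CPM in Wt non-diabetic mice 25, 42 and 89, and 37.7, 26.5 and 10.7 CPM in Wt diabetic mice 50, 7 and 80. Hif1a+/- non-diabetic mice 14, 32 and 44 had 25.5, 22.6 and 34.3 CPM, and Hif1a+/- diabetic mice 66, 72 and 77 had 23.1, 17.7 and 13.9 CPM. All 4 groups overlapped, and Wt diabetic mice held both the highest and the lowest value of the 12. Diabetes went with a log2 fold change of -0.58 (SE 0.35, edgeR adjusted p = 0.51) in Hif1a+/- mice and -0.17 (SE 0.35, edgeR adjusted p = 1.0) in Wt mice. Hif1a+/- diabetic mice differed from Wt non-diabetic mice by -0.62 (SE 0.35, edgeR adjusted p = 0.604). Within a sample the ratio of Irs2 to Irs1 counts was 0.261 to 0.295 in Hif1a+/- diabetic mice, inside the range of 0.173 to 0.596 in Wt non-diabetic mice.

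Insr, the receptor itself, lies on chromosome 8 (3122061 to 3279617, minus strand). It had 191, 209 and 163 CPM in Wt non-diabetic mice 25, 42 and 89 and 186, 202 and 165 CPM in Wt diabetic mice 50, 7 and 80. In Hif1a+/- mice it had 194, 198 and 186 CPM in non-diabetic mice 14, 32 and 44, and 182, 157 and 154 CPM in diabetic mice 66, 72 and 77. The Hif1a+/- diabetic samples were below all Hif1a+/- non-diabetic samples but overlapped both Wt groups. The log2 fold change with diabetes was -0.23 (SE 0.11, unadjusted p = 0.0516, edgeR adjusted p = 0.418) in Hif1a+/- and -0.02 (SE 0.11, edgeR adjusted p = 1.0) in Wt mice. Without both libraries that stand apart, mice 25 and 72, the fold change in Hif1a+/- mice was -0.18 for Insr, -0.55 for Irs1 and -1.04 for Irs2.

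The levels of Insr and Irs1 moved with the exon length of genes in general. Insr has 13746 bases of exon and Irs1 has 9144. In the comparison of diabetic with non-diabetic Hif1a+/- mice, the median log2 fold change was -0.13 over the 2488 genes with more than 8 kb of exon and 0.12 over the 2429 genes with less than 2 kb. An index per sample, the mean log2 deviation of genes over 8 kb minus that of genes under 2 kb, was between -0.172 and -0.079 in Hif1a+/- diabetic and between 0.074 and 0.187 in Hif1a+/- non-diabetic mice. In Wt mice the groups overlapped, from -0.191 to 0.199 in non-diabetic and from -0.277 to 0.174 in diabetic samples. Across the 12 samples the index and Insr had a Pearson's r of 0.893 and a Spearman's rho of 0.811, with an r of 0.891 without the 2 samples farthest from the median. For Irs1 r was 0.789, rho was 0.706 and r without these 2 samples was 0.675. The other members over 8 kb had a lower r, 0.343 for Pik3r1 (10079 bases) and 0.362 for Foxo1 (8665 bases). These are descriptions, since both measures come from the same libraries and Insr and Irs1 are among the long genes of the index. With an offset for exon length in the fit, which was chosen with the data in view, the Insr fold change in Hif1a+/- mice was -0.07 (unadjusted p = 0.333), more than 1.5 times closer to 0, whereas that of Irs1 was -0.48 and that of Irs2 was -1.03.

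**Figure D2:**
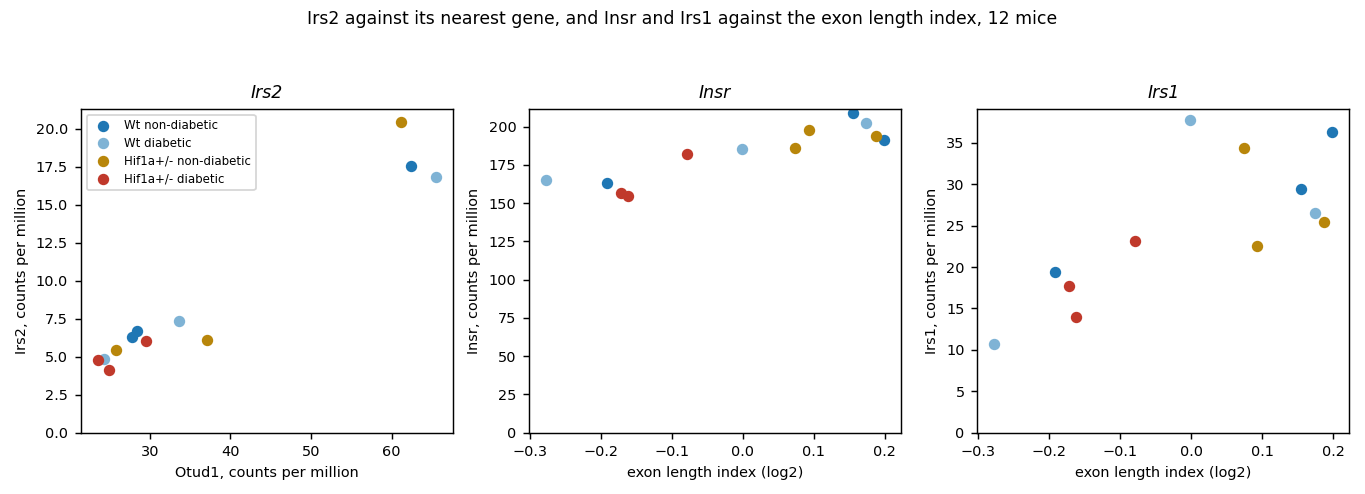
Left, Irs2 against Otud1, both in CPM; middle and right, Insr and Irs1 in CPM against the exon length index in log2 units. Each point is 1 of 12 mice and colours mark the 4 groups. The 3 mice with high Irs2 are apart from the other 9 on both axes, and Insr is lowest where the index is below 0.

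Macrophage markers also moved with the same groups. All 6 markers (Adgre1, Csf1r, C1qa, C1qb, Cd68 and Mrc1) were above the Hif1a+/- non-diabetic range in Hif1a+/- diabetic mice, as were 11.2% of all tested genes. Their summed level there was 264 to 432 CPM against 131 to 200 CPM, and DESeq2 called 3 of them (background 1.44%). In Wt mice the sums were 171 to 246 CPM in non-diabetic and 187 to 313 CPM in diabetic samples. By staining, the study reported more macrophages only in the LV of Wt offspring of diabetic pregnancy. Across the 12 samples Pearson's r between Insr and each marker was between -0.814 and -0.616, and between Irs1 and each marker between -0.758 and -0.581. Adventitial and mesothelial markers summed to 173 to 384 CPM in Hif1a+/- diabetic mice against 105 to 113 CPM in Hif1a+/- non-diabetic mice, and fibroblast markers to 1264 to 1841 CPM against 1257 to 1376 CPM. The sum hides a split: of the 6 adventitial and mesothelial genes, 3 were higher and 1 was lower without overlap. For 5 of them, r with Irs1 ran from -0.604 to 0.852. The part of exon length and of cell types in the Insr and Irs1 values was not tested beyond the offset.

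Pik3r1 encodes the p85 regulatory subunit that holds PI3-kinase to the adaptors. The gene lies on chromosome 13 (101680563 to 101768217, minus strand). Wt non-diabetic mice 25, 42 and 89 had 249, 115 and 129 CPM, and Wt diabetic mice 50, 7 and 80 had 177, 212 and 137 CPM. Hif1a+/- non-diabetic mice 14, 32 and 44 had 177, 133 and 113 CPM, and Hif1a+/- diabetic mice 66, 72 and 77 had 199.6, 153 and 136 CPM. The highest mouse was well above the other 2 in Wt non-diabetic mice and less so elsewhere, and all groups overlapped. Between diabetic and non-diabetic mice the log2 fold change was 0.10 (SE 0.27) in Wt and 0.21 (SE 0.27) in Hif1a+/- mice (edgeR adjusted p = 1.0 and 0.77). The value in Wt mice rested on single mice, since it was 0.53 without mouse 25, the library high in globin, and -0.10 without mouse 42.

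The same 4 mice, 25, 7, 14 and 66, were the highest of their groups for Foxo3. This forkhead factor switches on genes of atrophy, autophagy and stress defence when AKT is inactive, and lies on chromosome 10 (42181841 to 42276755, minus strand). Foxo3 had 133, 90.6 and 101 CPM in Wt non-diabetic mice 25, 42 and 89 and 110.0, 133 and 121 CPM in Wt diabetic mice 50, 7 and 80. It had 121, 110.2 and 94.7 CPM in Hif1a+/- non-diabetic mice 14, 32 and 44 and 159, 113 and 106 CPM in Hif1a+/- diabetic mice 66, 72 and 77. Over the 12 samples Pik3r1 and Foxo3 had a Pearson's r of 0.835 and a Spearman's rho of 0.902, with an r of 0.848 without the 2 farthest samples, the highest r of the 45 pairs of members. Mouse 66 was the deepest library, with 39812939 counts, and was the highest of its group for 9 of the 10 members. Mouse 25 was the shallowest, with 16132442 counts. Foxo3 differed with diabetes by 0.17 (SE 0.17) in Wt and 0.22 (SE 0.16) in Hif1a+/- mice on the log2 scale (edgeR adjusted p = 1.0 and 0.604).

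Foxo1, the relative of Foxo3 that drives genes of glucose production in liver, lies on chromosome 3 (52268336 to 52353221, plus strand) and was steady. The 3 mice of each group lay between 35.7 and 39.7 CPM in Wt non-diabetic, 31.7 and 40.4 CPM in Wt diabetic, 37.2 and 38.3 CPM in Hif1a+/- non-diabetic, and 33.5 and 42.3 CPM in Hif1a+/- diabetic mice. All groups overlapped, and the diabetes effects were -0.05 (SE 0.11) in Wt and -0.01 (SE 0.11) in Hif1a+/- mice. Their relative Foxo4 ranged from 71.2 to 97.0 CPM with overlapping groups.

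Akt1, a kinase linked chiefly to growth and survival of heart muscle, had an unadjusted p under 0.05 by edgeR with diabetes in Hif1a+/- mice. So did 12.0% of all tested genes. Akt1 lies on chromosome 12 (112653821 to 112674884, minus strand). Wt non-diabetic mice 25, 42 and 89 had 211, 238 and 202 CPM, and Wt diabetic mice 50, 7 and 80 had 264, 233 and 225 CPM. Hif1a+/- non-diabetic mice 14, 32 and 44 had 203, 214 and 222 CPM, and Hif1a+/- diabetic mice 66, 72 and 77 had 239.7, 260.1 and 245 CPM. The Hif1a+/- diabetic samples were above all non-diabetic samples of either genotype, whereas Wt diabetic and Wt non-diabetic samples overlapped. Of all tested genes, 11.2% were higher without overlap against Hif1a+/- non-diabetic mice and 7.47% against Wt non-diabetic mice. The log2 fold change of Akt1 with diabetes was 0.22 (SE 0.09), a 1.16-fold difference, in Hif1a+/- mice, with a 95% interval from 0.03 to 0.41. The unadjusted p of 0.0265 gave an adjusted p of 0.371 by edgeR. In Wt mice it was 0.15 (SE 0.09, edgeR adjusted p = 1.0). Averaged over both genotypes the effect was 0.18 (SE 0.06, unadjusted p = 0.0109), with an adjusted p of 0.337 by edgeR and 0.181 by DESeq2. With the exon length offset the value in Hif1a+/- mice was 0.21, and across all alternatives it lay between 0.19 and 0.26.

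Akt2, the AKT kinase through which insulin chiefly controls glucose uptake, had an unadjusted p of 0.496 by edgeR with diabetes in Hif1a+/- mice. Whether its effect differed from that of Akt1 was not tested. Akt2 lies on chromosome 7 (27591552 to 27640826, plus strand), and its values ran from 185 to 228 CPM, with Wt diabetic mice 7 and 50 at the ends. The groups overlapped, and the effect of diabetes was 0.07 (SE 0.09) in both genotypes, with 95% intervals from -0.13 to 0.27 in Wt and from -0.14 to 0.27 in Hif1a+/- mice. The ratio of Akt2 to Akt1 counts was 0.79 to 0.945 in Hif1a+/- diabetic and 0.933 to 0.982 in Hif1a+/- non-diabetic mice, which overlap.

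**Figure D3:**
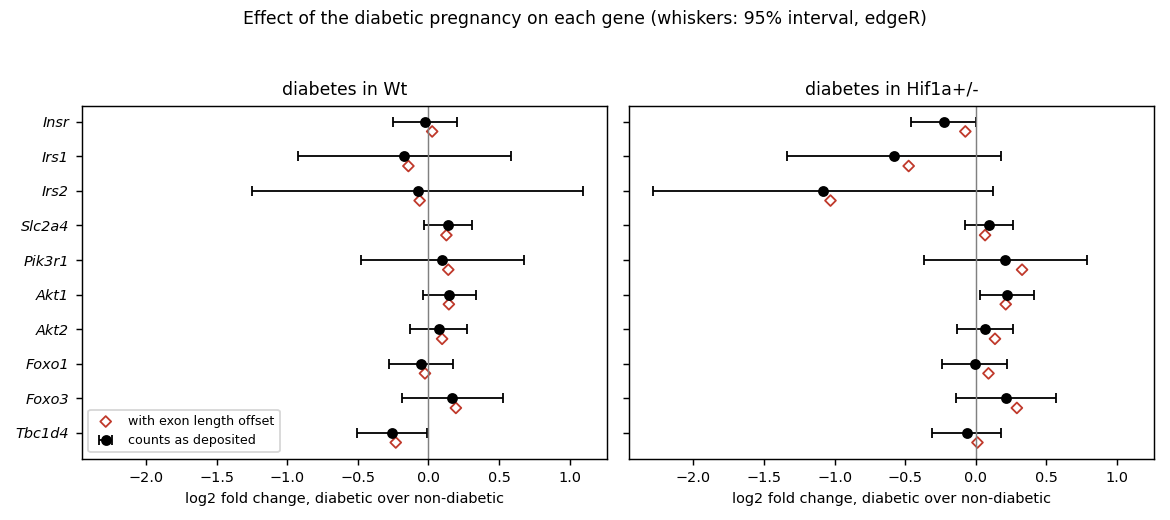
Log2 fold change of each gene between diabetic and non-diabetic pregnancy (horizontal axis) in Wt (left) and Hif1a+/- mice (right), with 95% intervals from edgeR as whiskers and the values with an exon length offset as red diamonds. Intervals leave out 0 for Tbc1d4 in Wt and for Akt1 in Hif1a+/- mice, and the offset moves Insr in Hif1a+/- mice from -0.23 to -0.07.

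Slc2a4 encodes GLUT4, the transporter that insulin brings to the surface of muscle and fat cells. It lies on chromosome 11 (69942539 to 69948188, minus strand). Wt non-diabetic mice 25, 42 and 89 had 621, 575 and 571 CPM, and Wt diabetic mice 50, 7 and 80 had 657, 598 and 687 CPM. Hif1a+/- non-diabetic mice 14, 32 and 44 had 576, 546 and 583 CPM, and Hif1a+/- diabetic mice 66, 72 and 77 had 624, 588 and 609 CPM. All 3 Hif1a+/- diabetic samples were above the 3 non-diabetic ones by a narrow margin, and the Wt groups overlapped. Its log2 fold change was 0.09 (SE 0.08, edgeR adjusted p = 0.635) in Hif1a+/- and 0.14 (SE 0.08, edgeR adjusted p = 1.0) in Wt mice, or 0.12 (SE 0.06, edgeR adjusted p = 0.458) averaged over both. The 95% intervals of these effects ran from -0.08 to 0.26 in Hif1a+/- and from -0.03 to 0.31 in Wt mice. Slc2a1, the insulin-independent transporter GLUT1, had 16.4 to 24.9 CPM with overlapping groups, and the ratio of Slc2a1 to Slc2a4 counts was between 0.0286 and 0.0424 in all samples.

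Tbc1d4 encodes AS160, the brake on GLUT4 vesicles that AKT releases, and lies on chromosome 14 (101442360 to 101609191, minus strand). Wt non-diabetic mice 25, 42 and 89 had 133, 138 and 111 CPM, and Wt diabetic mice 50, 7 and 80 had 103, 107 and 108 CPM. All 3 diabetic samples were below the non-diabetic ones, with a log2 fold change of -0.26 (SE 0.11, unadjusted p = 0.0406, edgeR adjusted p = 1.0). Hif1a+/- non-diabetic mice 14, 32 and 44 had 130.3, 125 and 125 CPM, and Hif1a+/- diabetic mice 66, 72 and 77 had 140.4, 122 and 100.2 CPM. There the groups overlapped, and the fold change was -0.06 (SE 0.11, edgeR adjusted p = 0.846). The ratio of Tbc1d4 to its relative Tbc1d1, which does not depend on the scaling of the library, was 6.41 to 7.47 in Wt diabetic and 8.23 to 9.58 in Wt non-diabetic mice, without overlap. In Hif1a+/- mice it was 6.08 to 10.8 in diabetic and 8.34 to 8.92 in non-diabetic samples. Of 15 clock genes, 4 were higher and 2 lower without overlap in Wt diabetic than in Wt non-diabetic mice. The shares of all tested genes were 2.14% and 3.4%. Over the 12 samples, Pearson's r of Tbc1d4 with the clock genes ran from -0.436 to 0.615, with a median of -0.276. The part of clock state in the Tbc1d4 values was not tested.

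The wider pathway was read from 8 lists of genes by role, 154 genes in all with the members, of which 152 were tested. By edgeR 0 of these genes passed in any comparison. In Hif1a+/- mice, 63 of the 152 (41.4%, against 49.0% of all tested genes) had a fold change above 0 with diabetes. Without overlap 12 were higher (7.89%, against 11.2% of tested genes) and 24 lower (15.8%, against 13.2%), and the median log2 fold change was -0.03, beside -0.006 over all tested genes. In Wt mice 85 were above 0 (55.9%, against 51.6%), 4 were higher (2.63%, against 2.14%) and 6 lower (3.95%, against 3.4%) without overlap, and the median was 0.02 (all tested genes 0.006). DESeq2 called 2 of the 152 in Hif1a+/- mice, Txnip and Rps6kb1, where its background was 1.44%. It also called Txnip between genotypes in diabetic pregnancy (adjusted p = 0.0533, background 0.155%), Pfkfb2 in Hif1a+/- diabetic against Wt non-diabetic mice (adjusted p = 0.0864, background 0.453%) and Pik3r3 in the averaged effect of diabetes (adjusted p = 0.0927, background 1.46%).

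Txnip, which encodes a protein that removes GLUT1 and GLUT4 from the cell surface and is induced by glucose, had fold changes of opposite sign in the 2 genotypes. It had 274, 223 and 415 CPM in Wt non-diabetic mice 25, 42 and 89 and 187, 212 and 214 CPM in Wt diabetic mice 50, 7 and 80. In Hif1a+/- mice it had 243, 192 and 206 CPM in non-diabetic mice 14, 32 and 44 and 433, 421 and 264 CPM in diabetic mice 66, 72 and 77. The groups did not overlap in either genotype. The log2 fold change was -0.58 (SE 0.21, edgeR adjusted p = 1.0) in Wt and 0.80 (SE 0.21, adjusted p = 0.256 by edgeR and 0.0231 by DESeq2) in Hif1a+/- mice. The difference of the 2 effects was 1.38 (SE 0.30), with an unadjusted p of 0.000486 and an adjusted p of 0.998 by edgeR and 0.1 by DESeq2, so it did not pass over all genes by edgeR.

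The genes with the smallest p in their lists, none of which passed by edgeR, had these values. Rps6kb1, the S6 kinase downstream of mTOR, differed by -0.29 (SE 0.08) in Hif1a+/- mice (adjusted p = 0.266 by edgeR and 0.097 by DESeq2), and the gene of its substrate, Rps6, by 0.30 (SE 0.11, edgeR adjusted p = 0.349). Pfkfb2, the cardiac enzyme through which insulin stimulates glycolysis, had 41.7 to 47.0 CPM in Hif1a+/- diabetic and 53.9 to 65.5 CPM in Hif1a+/- non-diabetic mice, a log2 fold change of -0.44 (SE 0.13, edgeR adjusted p = 0.295). Sik1, a salt-inducible kinase, had 33.1 to 41.6 CPM against 49.7 to 134 CPM (-1.09, SE 0.41, edgeR adjusted p = 0.359). Phlpp1, a phosphatase that turns AKT off, was lower without overlap in both genotypes, by -0.22 (SE 0.09) in Wt and -0.21 (SE 0.08) in Hif1a+/- mice, with edgeR adjusted p = 1.0 and 0.38. In the PI3-kinase list, Pik3r3, another regulatory subunit, differed by -0.40 (SE 0.14) and Pik3cg, the catalytic subunit typical of white blood cells, by 0.86 (SE 0.32) in Hif1a+/- mice (edgeR adjusted p = 0.313 and 0.352). Pik3cg had 3.24 to 4.82 CPM there, in the same samples in which the macrophage markers were high. Of the receptor and adaptor list, Cav3, the muscle caveolin, differed by 0.28 (SE 0.12) and Cbl, a ubiquitin ligase of receptors, by -0.32 (SE 0.15) in Hif1a+/- mice (edgeR adjusted p = 0.391 and 0.416). Catalase, encoded by the FOXO-responsive gene Cat, differed by -0.27 (SE 0.09, edgeR adjusted p = 0.299), and Braf of the MAPK branch by -0.25 (SE 0.11, edgeR adjusted p = 0.409). Among genes of GLUT4 traffic the smallest p was that of Rhoq, at -0.23 (SE 0.09, edgeR adjusted p = 0.383), followed by Rab8a at 0.19 (SE 0.10, edgeR adjusted p = 0.44). Ccng2 of the FOXO list differed by -0.26 and Rps6ka3 of the MAPK branch by -0.40 in Hif1a+/- mice (edgeR adjusted p = 0.417 and 0.425). Between Hif1a+/- diabetic and Wt non-diabetic mice the difference was -0.24 for Crk, -0.22 for Prkci, -0.25 for Pdk1, 0.15 for Stx4a and 0.22 for Gabarapl1, with edgeR adjusted p between 0.502 and 0.608. Igf1r, the closest relative of the insulin receptor, ranged from 6.74 to 21.3 CPM, and its groups overlapped.

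**Figure D4:**
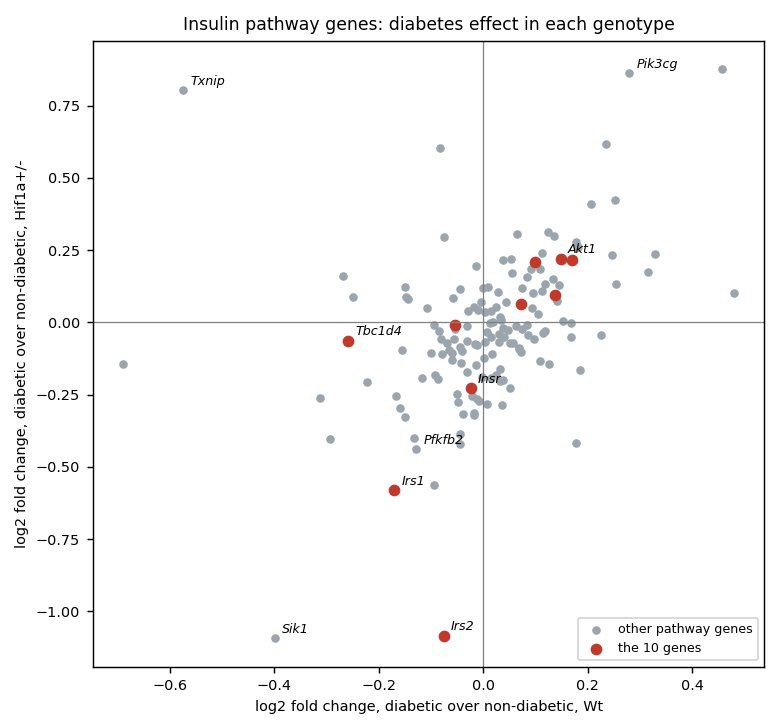
Log2 fold change between diabetic and non-diabetic pregnancy in Wt (horizontal axis) and in Hif1a+/- mice (vertical axis) for the tested genes of the insulin pathway lists, with the 10 members in red. The 2 axes share no sample. Txnip stands alone at -0.58 and 0.80, and Irs2 and Sik1 lie lowest in Hif1a+/- mice at -1.08 and -1.09.

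The genes whose pattern over the 12 samples was most like that of each member were named by the highest Pearson's r among 10362 genes with a mean of at least 5 CPM. Irs2 was closest to Otud1 (r = 0.967, rho = 0.874), a deubiquitinase, which had 62.4, 65.5 and 61.2 CPM in mice 42, 50 and 44 and 23.5 to 37.1 CPM in the other 9. Because the points fall into these 2 clusters, r was also computed within the 9 mice, where it was 0.738. The stress-induced factor Atf3 had 21.9, 21.3 and 20.8 CPM in the same 3 mice and 4.69 to 13.0 CPM in the others, with an r of 0.753 within the 9. Over all 12 samples Atf3 was the highest of 7 immediate early genes, whose r with Irs2 ran from -0.08 to 0.918 with a median of 0.518. For the clock output gene Dbp the 3 mice had 21.5, 33.2 and 16.5 CPM, and the other 9 had 26.6 to 107 CPM. Dbp was the lowest of 15 clock genes, whose r with Irs2 ran from -0.735 to 0.507 with a median of -0.36. The time of day at which hearts were taken is not given in the sources used here, and its part was not tested. Irs1 was closest to Kif21a (r = 0.963, rho = 0.916), Insr to Smap1 (r = 0.965, rho = 0.902), Pik3r1 to Fam117b (r = 0.946, rho = 0.965), Akt2 to Mrpl50 (r = 0.943, rho = 0.867) and Foxo3 to Spock2 (r = 0.943, rho = 0.923). Tbc1d4 was closest to Fam210b (r = 0.922, rho = 0.888), Akt1 to Zfp931 (r = 0.871, rho = 0.853), Slc2a4 to Mettl17 (r = 0.866, rho = 0.874) and Foxo1 to Agpat3 (r = 0.865, rho = 0.902). Each is the highest of many values and is given as a description. Among members, Irs1 had an r of 0.714 with Insr (rho 0.601, 0.606 without the 2 farthest samples) and of 0.707 with Irs2 (rho 0.783), which was 0.69 within the 9 mice. Slc2a4 and Akt2 had an r of 0.686 (rho 0.664), which was 0.456 without the 2 farthest samples.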

How the data were processed

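LV RNA of 12 mice was measured as 3′-seq libraries sequenced on a NextSeq. Per the labels and the methods of the study, the authors trimmed reads with Trimmomatic, took out reads of ribosomal and mitochondrial RNA, mapped what remained with STAR (version 2.5.2b) to GRCm38 and counted them with htseq-count on the GENCODE M8 annotation. Use of strand is not given in the sources used here. The deposited counts are reads per gene without normalization. The tally lines of each file, for reads that fell on no gene, on more than 1 gene or on several places, were left out, and made up 20.2% to 24.18% of all its reads, those on several places 12.37% to 17.02%. The authors also deposited normalized values (the signal read here), the count divided by a DESeq2 size factor, used only to compare the order of groups, which was the same for 9 of the 10 genes and not for Akt2.

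Symbols and coordinates came from a GENCODE annotation of GRCm38, and promoters from RefSeq (GRCm38.p6). Counts were tested with edgeR 4.0.16 (R 4.3.3): TMM, filterByExpr by group, 1 mean per group, all 12 samples in 1 fit, Benjamini-Hochberg over 14706 genes, adjusted p under 0.1 as in the study. The biological coefficient of variation was 13.7% with 8 residual degrees of freedom. Alternatives were DESeq2 1.42.0, limma-voom with quality weights (limma 3.58.1), DESeq2 size factors, other filters, a threshold of 0.05, only the groups compared and leaving out each mouse. An offset for exon length and leaving out both libraries that stand apart were added after the data had been seen. Scripts (Python 3.11.15) were tested on simulated data. Correlations used log2(CPM + 0.5). Within a group no library was a repeat of another: chi-square per gene was 5.54 to 47.25 for mice of 1 group, beyond what counting alone gives. Libraries of different groups were not compared in this way.

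The members and the lists were chosen with earlier results of these data known. Besides the members, the text names the 2 genes of each list with the smallest p in Hif1a+/- mice or in Hif1a+/- diabetic against Wt non-diabetic mice, near relatives, markers, and the gene most like each member. 1 of the relatives is not reported here. Atf3, Dbp and Ddx3y were picked from their lists after their values had been seen.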

Additional observations from a re-analysis of the deposited data

How the results depend on the processing

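Of the 30 reported fold changes of members that were followed through 20 alternatives, 23 kept their sign in every one. Other fold changes of members were not counted here and could turn as well. For Pik3r1 in Hif1a+/- diabetic against Wt non-diabetic mice the value was -0.0081, and 0.0964 with the exon length offset. The count of members past the threshold was 0 in every alternative but one. Without a filter on low counts, edgeR called 2 members (Irs1 and Irs2) between diabetic and non-diabetic Hif1a+/- mice, 2 between Hif1a+/- diabetic and Wt non-diabetic mice, 2 in the averaged effect of diabetes and 1 (Irs2) between genotypes in diabetic pregnancy. Over all genes, the fit without a filter called 592, 445, 593 and 220 of 27093 in these comparisons, in the same order. The main fit called 0 of 14706 in each. Without the filter the total degrees of freedom were 159.7 against 13.3 in the main test, and the fold changes barely moved: -1.07 for Irs2 and -0.57 for Irs1 in Hif1a+/- mice, with edgeR adjusted p of 0.00164 and 0.0343 against 0.451 and 0.51.

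Each fold change that turned was smaller in size than its SE in the main fit. Those of Irs2, Irs1 and Pik3r1 in Wt mice moved most when single mice were left out. Leaving out 1 mouse at a time, the effect of diabetes in Wt mice ran from -0.1168 to 0.0627 for Insr, from -0.58 to 0.18 for Irs1, from -0.72 to 0.58 for Irs2, from -0.10 to 0.53 for Pik3r1 and from -0.15 to 0.0313 for Foxo1. In Hif1a+/- mice it ran from -0.11 to 0.0754 for Foxo1 and from -0.19 to 0.0548 for Tbc1d4. With the exon length offset it was 0.0261 for Insr in Wt mice, and 0.09 for Foxo1 and 0.0119 for Tbc1d4 in Hif1a+/- mice. Without both libraries that stand apart it was 0.0428 for Irs1 in Wt and 0.0755 for Foxo1 in Hif1a+/- mice, and without a filter it was 0.0055 for Foxo1 in Hif1a+/- mice. The cause was not tested. Where Wt non-diabetic mouse 42 was left out, Irs2 in Wt mice was at the upper end of its range. No paired analysis was possible because the groups hold different mice and the sources used here do not give the litter of each mouse. Whether Wt and Hif1a+/- mice of the same kind of pregnancy shared litters is therefore not known. The lowest count of a member in a sample was 85, for Irs2, and each group held 3 mice.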
